A study of Mus musculus with 6 samples.

Results

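The genes described here encode the laminin network of the basement membrane and the receptors that bind it. They are the 41 rows, of 17527 rows in the filtered count table, whose symbol names a laminin chain (11 genes), an integrin subunit (25 genes), a nidogen (Nid1, Nid2), perlecan (Hspg2), agrin (Agrn) or dystroglycan (Dag1). Integrin subunits of leukocytes (7 genes, with Itgad added to Itgal, Itgam, Itgax, Itgae, Itgb2 and Itgb7) were kept apart from the other 34 members. The integrin-binding-protein rows Itgb1bp1, Itgb1bp2 and Itgb3bp were left out by name. Itgav lay outside the naming pattern and is described only as a partner of Itgb3 and other β subunits.

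RNA was extracted from submandibular glands (SMGs) of female mice and sequenced from 6 unstranded libraries, 3 per genotype. WT glands came from wildtype mice and DKO glands from mice carrying inactivating alleles of both Hs3st3a1 and Hs3st3b1 in every cell, on a C57BL/6 background. Both genes encode enzymes that add 3-O-sulfate to heparan sulfate. Library numbers 1, 4 and 5 recur in both groups. The labels give no age, and the study describes the glands of its RNA sequencing as adult.

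Laminins are trimers of an α, a β and a γ chain that polymerise under epithelia, muscle, nerve and vessels. Nidogens, perlecan and agrin tie this network to collagen IV and to the cell surface, and the last 2 are proteoglycans that carry heparan sulfate chains. Integrins are αβ dimers: those with α3, α6 or α7 bind laminins, others bind collagens or ligands with an RGD (arginine-glycine-aspartate) motif, and the β2 and β7 families are made by leukocytes. In a salivary gland, acini and the contractile myoepithelial cells (MECs) around them share 1 basement membrane.

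Total counts were 23674258 to 29611975 per library, and the 41 genes together took 0.0887 to 0.143% of them. Values are counts normalized by DESeq2 size factors unless a scale per kb is named. The targeted genes did not separate the genotypes: Hs3st3a1 had 15, 11 and 15 counts in WT and 11, 8 and 13 in DKO, and Hs3st3b1 had 173, 203 and 261 and 255, 120.0 and 189. The Hs3st3a1 allele is a small frameshift deletion, which counts over a whole gene need not read. The Hs3st3b1 allele carries a LacZ cassette by which it is detected. Counts of that gene that overlap between the groups would go against the label if the cassette removed the bases counted. The bases that the cassette replaces were not given in the sources used here, so these counts do not settle the genotype. By qPCR, the study detected neither Hs3st3a1 nor Hs3st3b1 in adult DKO glands of either sex. By mass spectrometry of male DKO glands, it did not detect a tetrasaccharide predicted to come from HS3ST3 enzymes. Whether the glands of the qPCR also gave these libraries is not stated. WT and DKO therefore stand for the libraries labelled so throughout, and each direction given is between libraries with these labels. Markers of acini (Aqp5, Lpo, Bhlha15), ducts (Klk1, Egf) and MECs (Acta2, Cnn1) were present in all 6 libraries, while those of skeletal muscle, adipocytes and platelets were at or near 0 apart from Ckm, Fabp4 and Pf4.

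Of the 41 genes, 5 were lower in DKO at an adjusted p under 0.05 in DESeq2's Wald test and 0 were higher, where 1.88% of the 18606 rows tested were called lower and 1.02% higher. The 5 were Lama2, a laminin chain of muscle and mesenchyme; Itga8 and Itgb3, subunits of RGD-binding integrins; Itga4, the α subunit of a receptor for VCAM1 and fibronectin; and Itgal, the α subunit of LFA-1 on leukocytes. The median log2 fold change of the 34 non-leukocyte members was -0.19 and that of the leukocyte integrins -0.998, against 0.0011 over all rows tested. All 3 libraries labelled DKO lay below all 3 labelled WT in 12 of the 41, all of them non-leukocyte members, and above in 0, beside backgrounds of 10.5% and 9.85% of rows. For 19 of the 41 genes the 95% interval of the fold change lay within 1.5-fold in either direction. In bulk tissue, fewer cells of a type and less RNA per cell cannot be told apart. The number of calls rested on the test, the scaling and the libraries: edgeR's quasi-likelihood test and limma-voom called 0 of the 41 (16 and 13 had an unadjusted p under 0.05, against 15 in DESeq2) and 10 and 7 rows in all, against 539. Over all 18606 rows, 2789 in edgeR, 2609 in limma-voom and 2267 in DESeq2 had an unadjusted p under 0.05. Total counts as size factors called 18 of the 41, all lower, and 1472 rows in all. Leaving out a library left 3 (WT 1), 9 (WT 4), 2 (WT 5), 10 (DKO 1), 2 (DKO 4) or 1 (DKO 5). The same fits called 151, 817, 149, 740, 170 and 166 rows in all, so the calls over all rows varied as well.

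**Figure D1:**
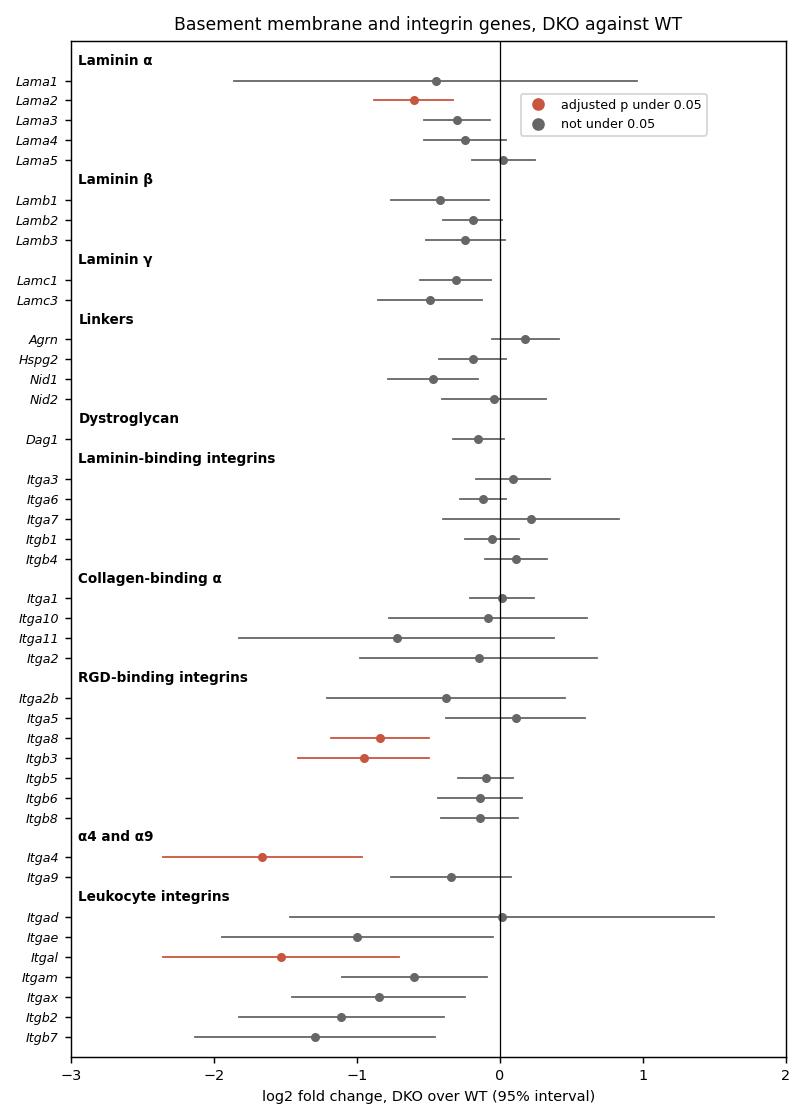
Log2 fold change of DKO over WT for 40 of the 41 genes, grouped by role, with the 95% interval of the DESeq2 fit as a horizontal line. Red marks the 5 genes with an adjusted p under 0.05, which all lie left of 0; the laminin-binding integrins lie around 0.

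Promoter windows are shown for Lama2, Itga8 and Itga4, the called genes for which RefSeq's table held a window. Such windows (GRCm38.p6) were found for 26 of the 41 genes. Each sequence is the 250 bases before the RefSeq start site, 5′ to 3′ on the gene's strand. Capitals mark matches, on either strand, to the CArG box, which serum response factor binds in smooth muscle genes, and to GAGGAA, a core bound by ETS factors such as PU.1. The CArG box was read strictly, as CC, 6 bases of A or T, and GG, and variants of it were not searched. Both motifs were chosen after the values were seen.
Lama2, chr10:27616943-27617192, minus strand: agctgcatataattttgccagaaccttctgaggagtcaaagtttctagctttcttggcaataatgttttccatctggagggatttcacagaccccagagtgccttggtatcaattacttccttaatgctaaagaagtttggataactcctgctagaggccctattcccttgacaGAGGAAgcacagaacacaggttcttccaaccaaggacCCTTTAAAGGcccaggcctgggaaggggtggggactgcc
Itga8, chr2:12301945-12302194, minus strand: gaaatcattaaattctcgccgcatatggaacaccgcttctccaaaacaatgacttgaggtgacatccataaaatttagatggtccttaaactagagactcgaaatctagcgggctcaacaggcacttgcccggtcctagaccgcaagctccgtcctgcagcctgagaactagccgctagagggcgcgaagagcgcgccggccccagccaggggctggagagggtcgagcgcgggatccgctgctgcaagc
Itga4, chr2:79255176-79255425, plus strand: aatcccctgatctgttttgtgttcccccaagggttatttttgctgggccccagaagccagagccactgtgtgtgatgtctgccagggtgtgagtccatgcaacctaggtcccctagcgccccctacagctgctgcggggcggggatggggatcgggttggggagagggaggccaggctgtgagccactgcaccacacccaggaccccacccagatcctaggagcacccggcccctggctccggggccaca
The Lama2 window held 1 CArG box, at bases 212 to 221 counted from its 5′ end, with 29 bases between it and the RefSeq start site, and 1 GAGGAA match that does not overlap it. In the gene model that gives the exon lengths here, Lama2 starts further upstream, at 27619758. This window therefore lies inside that model, outside its exons. A CArG box occurred in 1.47% of all 32851 RefSeq windows of this length and GAGGAA in 23.3%. Neither motif occurred in the Itga8 or Itga4 window. The base composition differed, with 0 CpG dinucleotides in the Lama2 window, 18 in that of Itga8 and 6 in that of Itga4. Among the other genes described here, 1 of the windows of Itgb6 held a CArG box, and GAGGAA was found in 13 of the 31 windows of all 26 genes (41.9%), Lama2 included. For the MEC markers with a window, 0 of 6 held a CArG box of this strict form within these 250 bases. Boxes with a G or C among the inner 6 bases would have been missed.

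The laminin chain genes were measured at very different levels per length of exon. Among the α chains in WT, Lama5, the chain typical of mature epithelial basement membranes, stood at 127 ± 6.5 (SD, n = 3) normalized counts per kb and Lama2 at 100.1 ± 10.8. Their order depends on the length used, since over each gene's longest transcript the log2 ratio of Lama5 to Lama2 turned from 0.35 to -0.42. Lama3, an α chain of epithelial anchorage, followed at 69 ± 3.33 and Lama4, a chain of vessels and mesenchyme, at 31.2 ± 0.609. Lama1, the embryonic α chain, was close to absent at 1.17 ± 0.285. Of the β chains, Lamb2 (169 ± 6.32) and Lamb3 (159.8 ± 7.74) did not differ beyond their spread, and their order also turned with the length. Lamc1, the γ chain of most laminins, stood at 124 ± 4.34, above Lamc3 (55.7 ± 0.985).

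Of all 41 genes, Itgb1 (612 ± 32.2 per kb), the shared β subunit of most matrix receptors, and Itga6 (515 ± 21.7) stood highest in WT, in an order that turned with the length. They were followed by Itgb5 (409 ± 17.5), Dag1 (359 ± 12.3), Hspg2 (255 ± 21.6) and Itgb4 (248 ± 6.98), the last 2 within each other's spread. The lowest were Lama1 and Itgad, a leukocyte α subunit, at 1.68 ± 0.338.

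**Figure D2:**
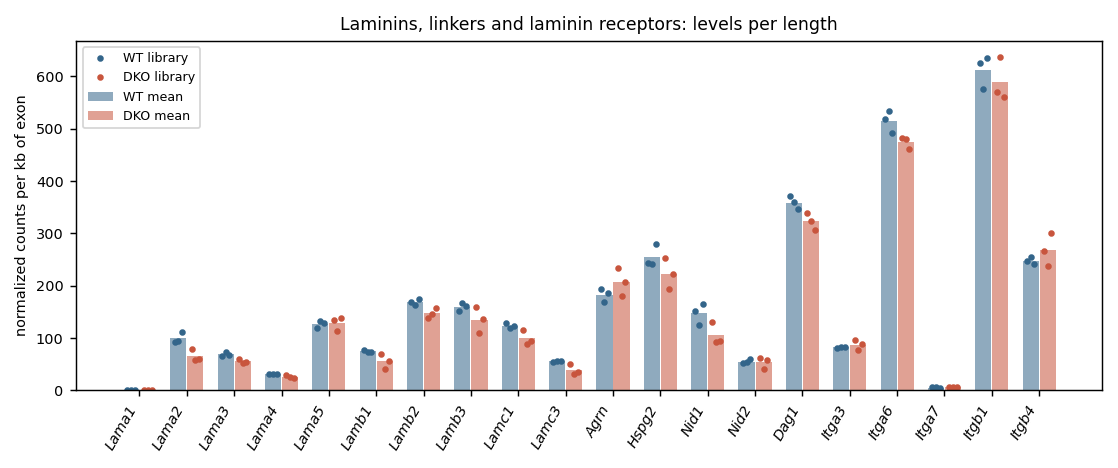
Normalized counts per kb of exon for laminin chains, linkers, dystroglycan and laminin-binding integrins; bars are group means and points the 3 libraries of each group. Itgb1 and Itga6 stand highest, and the 3 DKO points of Lama2 lie below its 3 WT points.

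Among the laminin chains, Lama2 fell and the other 10 did not pass the test. Lama2 (chr10:26980036-27619758, GRCm38, minus strand; ENSMUSG00000019899.16) encodes the α2 chain of muscle, nerve and mesenchymal laminin. It had 1515, 1554 and 1838 normalized counts in the WT libraries and 1287, 947 and 992 in the DKO libraries. The groups did not overlap, and DKO 1 lay closest to WT. The mean went from 1636 ± 176 to 1075 ± 185 (SD, n = 3), and Lama2 fell by 0.60 on the log2 scale (SE 0.14, adjusted p = 0.00234). The call was lost without WT 5 (adjusted p = 0.107) or DKO 5 (0.0769).

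Lama5, in contrast, had 1362, 1502 and 1473 normalized counts in WT against 1530.4, 1295 and 1584 in DKO, with overlapping groups and a log2 fold change of 0.02 ± 0.11 (SE, adjusted p = 0.972). Its 95% interval was -0.20 to 0.24. Lama2 stood at 111, 104 and 125 counts per 100 of Lama5 in WT and at 84.1, 73.1 and 62.6 in DKO, and these ratios did not overlap. Within the α chains, counted per kb, Lama2 went from 30.5 ± 2.2% to 23.6 ± 2.06% of the total and Lama5 from 38.7 ± 0.915% to 46.5 ± 3.05%, while Lama3 (21 ± 1.08% and 20.1 ± 0.885%) and Lama4 (9.51 ± 0.412% and 9.48 ± 0.827%) differed by less than their spread. These shares restate the same counts and were not tested.

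The remaining laminin chains had log2 fold changes below 0, though none passed. Of all 11 chains 10 were below 0, where 49.8% of all rows were, with a median of -0.30. The groups did not overlap, with DKO lower, in 7 of the 11, against 10.5% of all rows. Lamb2 had 1029, 989 and 1066 normalized counts in WT against 846, 894 and 964 in DKO, a log2 fold change of -0.19 ± 0.11 (SE, adjusted p = 0.436). Lamb3, the β chain of epithelial anchoring laminin, had 1001, 1102 and 1067 and 1057, 726 and 897, a log2 fold change of -0.24 ± 0.14 (SE, adjusted p = 0.483). In Lamb2 the groups did not overlap, and in Lamb3 DKO 1 lay within the WT range.

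Lamc1 had 1065, 995 and 1016 normalized counts in WT against 960.2, 733 and 789 in DKO (-0.31 ± 0.13 (SE, adjusted p = 0.191) on the log2 scale). Its groups did not overlap. Lamb1, the β partner of Lamc1 in many tissues, stood at -0.42 (adjusted p = 0.195), Lamc3 at -0.49 (0.135), Lama3 at -0.30 (0.149), Lama4 at -0.24 (0.503) and Lama1 at -0.45 (0.892). DKO 1 was the highest of the DKO libraries in 8 of the 11 chains, and without it Lamb1 (0.007), Lamc1 (0.00786) and Lamc3 (0.00174) passed the test. Across the 6 fits that leave out a library, the median of the 11 chains stayed between -0.38 and -0.21.

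None of the linkers passed. Hspg2, perlecan, had 3475, 3453 and 3998 normalized counts in WT against 3635, 2761 and 3171 in DKO, a log2 fold change of -0.19 ± 0.12 (SE, adjusted p = 0.541). Agrn, agrin, had 1803, 1564 and 1734 and 2176, 1677 and 1917, a log2 fold change of 0.18 ± 0.12 (SE, adjusted p = 0.593). In both proteoglycans the groups overlapped, with DKO 1 the highest DKO library, and the 95% intervals were -0.43 to 0.05 and -0.06 to 0.41. Nid1, nidogen, a linker of laminin to collagen IV, stood at -0.47 ± 0.16 (SE, adjusted p = 0.0735) with overlapping groups, and it passed without WT 4 (0.0362) or without DKO 1 (0.00154). Nid2, the other nidogen, stood at -0.04 ± 0.18 (SE, adjusted p = 0.97). Dag1, which encodes the dystroglycan receptor of laminin, perlecan and agrin, had 2358, 2286 and 2202 and 2157, 2059 and 1944, with groups that did not overlap and a log2 fold change of -0.15 ± 0.09 (SE, adjusted p = 0.503).

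Of the laminin-binding integrins, 0 of 5 passed. Itgb1 had 2554, 2349.6 and 2595 normalized counts in WT against 2329, 2597 and 2289.8 in DKO, a log2 fold change of -0.06 ± 0.10 (SE, adjusted p = 0.907) with a 95% interval of -0.25 to 0.14. Itga6, the α subunit of the hemidesmosome receptor α6β4 and of α6β1, had 4682, 4824 and 4438 and 4347, 4341 and 4156, a log2 fold change of -0.12 ± 0.08 (SE, adjusted p = 0.608) with an interval of -0.28 to 0.04. The groups overlapped for Itgb1 and did not for Itga6, where the nearest libraries were WT 5 and DKO 1. Itgb4, the hemidesmosome β subunit, stood at 0.11 ± 0.11 (SE, adjusted p = 0.777), Itga3, its neighbour in epithelial anchorage, at 0.09 ± 0.13 (SE, adjusted p = 0.881), and Itga7, the muscle laminin receptor, which had at most 54 counts in a library, at 0.22 ± 0.31 (SE, adjusted p = 0.876). The median of the 5 was 0.09, and the intervals of Itgb1, Itga6, Itgb4 and Itga3 excluded a change of 1.5-fold in either direction.

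Of the collagen-binding α subunits, which pair with Itgb1, 0 of 4 passed. Itga1, a receptor for collagen IV, had 1127, 1015 and 967 normalized counts in WT against 1026, 1136 and 977 in DKO (0.01 ± 0.11 (SE, adjusted p = 0.984)). Itga10 had 33.6, 43 and 42.1 and 43.6, 31.4 and 36.9 (-0.08 ± 0.35 (SE, adjusted p = 0.965)), though 33.5% of its exon bases are shared with a neighbouring gene model on the same strand. The deposited counts hold no row for that model. Both Itga1 and Itga10 overlapped between the groups. Itga2 stood at -0.15 ± 0.42 (SE, adjusted p = 0.946) and Itga11, a fibroblast receptor for fibrillar collagen, at -0.72 ± 0.56 (SE, adjusted p = 0.67), from at most 47 counts in a library, and their intervals reached from -0.98 to 0.68 and from -1.83 to 0.38.

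Among the RGD-binding integrins, Itga8 and Itgb3 fell and the other 5 did not pass. Itga8 (chr2:12106632-12301922, GRCm38, minus strand; ENSMUSG00000026768.10) encodes the α8 subunit, which pairs with β1 and binds nephronectin and other RGD ligands. It had 491, 509.6 and 539 normalized counts in WT against 367, 239 and 251 in DKO. The groups did not overlap, the WT libraries lay close together and DKO 1 was the highest DKO library. The mean went from 513 ± 24.4 to 286 ± 70.6 (SD, n = 3), a fall of 1.79-fold, and Itga8 fell by 0.84 on the log2 scale (SE 0.18, adjusted p = 0.000405). It was the only one of the 41 genes called in each of the 6 fits that left out a library, and its weakest of these calls was the fit lacking WT 5 (adjusted p = 0.0345). It was not called by edgeR (0.119) or limma-voom (0.113).

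An antisense gene, E030013I19Rik, shares 372 exon bases with Itga8, or 5.05% of its exons. It had 52, 42 and 44 raw counts in WT and 24, 13 and 13 in DKO, a log2 fold change of -1.35 ± 0.42 (SE, adjusted p = 0.0402). Reads of the shared bases cannot be told apart by strand in these libraries. Its partner gene Itgb1 did not pass the test, and Itga8 stood at 19.2, 21.7 and 20.8 counts per 100 of Itgb1 in WT and at 15.8, 9.22 and 11 in DKO. Its ligand gene Npnt, nephronectin, was close to absent, with 6.93, 4.89 and 6.27 normalized counts in WT against 10.4, 8.36 and 17.3 in DKO (0.99 ± 0.72 (SE, adjusted p = 0.634)).

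Itgb3 (chr11:104608000-104670476, GRCm38, plus strand; ENSMUSG00000020689.4) encodes β3, the partner of αv in the vitronectin receptor and of αIIb on platelets. It had 134, 159 and 158 normalized counts in WT against 94.9, 71.1 and 65.7 in DKO. Every DKO library lay below every WT library. Itgb3 fell by 0.95 on the log2 scale (SE 0.23, adjusted p = 0.00423), a fall of 1.94-fold. The call was lost without WT 5 (adjusted p = 0.0878), DKO 4 (0.0523) or DKO 5 (0.0702).

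Both possible α partners of β3 were measured. Itgav had 1417, 1420.3 and 1621 normalized counts in WT against 1366, 1257 and 1295 in DKO, a log2 fold change of -0.19 ± 0.10 (SE, adjusted p = 0.438), so that Itgb3 stood at 9.43, 11.2 and 9.72 counts per 100 of Itgav in WT and at 6.94, 5.65 and 5.08 in DKO. Itga2b, the platelet α subunit, had 34.6, 29.3 and 25.1 and 27.5, 18.8 and 21.9 (-0.38 ± 0.42 (SE, adjusted p = 0.82)). Of 5 platelet markers, 4 had at most 8 counts in a library, and Pf4 had 32, 7 and 22 counts in WT and 22, 10 and 4 in DKO. The 5 summed to 18.6 to 36.6 normalized counts in WT and 8.07 to 30.4 in DKO, and the part of platelets in the change of Itgb3 was not tested.

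The other β partners of αv did not pass. Itgb5 had 1466, 1385 and 1507 normalized counts in WT against 1323, 1293 and 1449 in DKO (-0.10 ± 0.10 (SE, adjusted p = 0.775)). Itgb6, an epithelial subunit that activates latent TGFβ, had 550.2, 513 and 648 and 578, 441 and 532 (-0.14 ± 0.15 (SE, adjusted p = 0.802)). Their groups overlapped. Itgb8, which also activates latent TGFβ, stood at -0.14 ± 0.14 (SE, adjusted p = 0.768) and Itga5, the fibronectin receptor, at 0.11 ± 0.25 (SE, adjusted p = 0.929). Within the β subunits, counted per kb, Itgb3 made up 1.67 ± 0.232% of the total in WT and 0.919 ± 0.185% in DKO, against 26.8 ± 0.62% and 26.8 ± 1.23% for Itgb5.

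**Figure D3:**
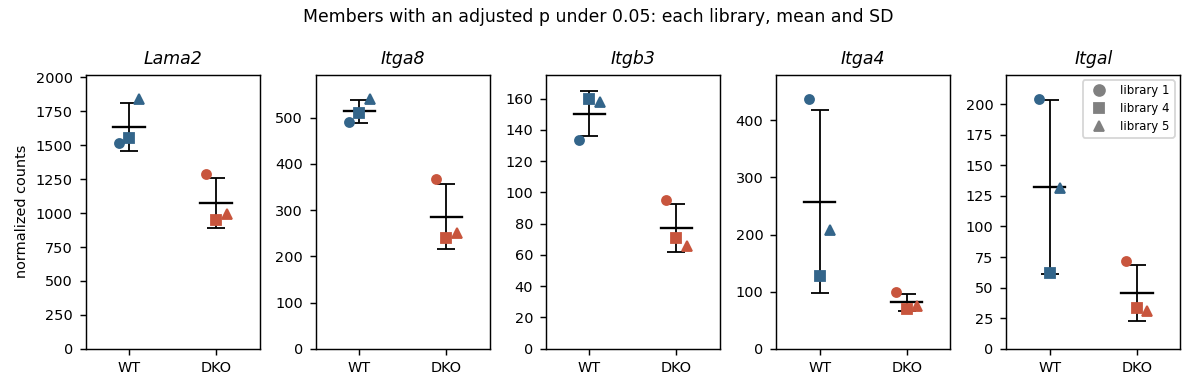
Normalized counts of Lama2, Itga8, Itgb3, Itga4 and Itgal in each library (symbols give the library number), with the group mean and SD. The groups overlap only for Itgal, and WT 1 stands far above the other WT libraries for Itga4 and Itgal.

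Markers of MECs moved with Lama2, Itga8 and Itgb3. Of the 7 MEC markers tested, 6 fell and 0 rose; the 4 with the smallest p were Cnn1 (-0.99, adjusted p = 8.92e-08), Acta2 (-0.74, 1.49e-07), Myh11 (-0.74, 2.77e-07) and Tagln (-0.80, 1.58e-06), all contractile genes. These 4 were called in each of the 6 fits that left out a library, but not by edgeR (adjusted p of 0.0562 to 0.089) or limma-voom (0.056 to 0.0678). The 8 markers summed to 10168 to 10994 normalized counts in WT and 5559.6 to 7362 in DKO. Acta2, smooth muscle actin, had 2695, 2429 and 2468 in WT and 1729.6, 1456 and 1346 in DKO. Krt5, a keratin of basal and myoepithelial cells, did not pass (-0.01, 0.997), and Oxtr was at 0 to 2 counts.

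The ratios of these 3 genes to Acta2 overlapped between the groups. Itga8 stood at 18.2, 21 and 21.8 counts per 100 of Acta2 in WT and at 21.2, 16.4 and 18.7 in DKO. Lama2 stood at 56.2, 64 and 74.5 and 74.4, 65 and 73.7, and Itgb3 at 4.96, 6.56 and 6.39 and 5.49, 4.88 and 4.88. The ratio of Itga4 to Acta2 overlapped as well, at 16.2, 5.28 and 8.42 in WT and 5.70, 4.81 and 5.57 in DKO, so overlap did not set these 3 genes apart. The ratios of Lama2 to Lama5, Itga8 to Itgb1 and Itgb3 to Itgav did not overlap. Markers of pericytes and vascular smooth muscle, which also make Acta2, were called in 0 of 5, with sums of 1666 to 1968 in WT and 1719 to 1859.7 in DKO. Of 6 fibroblast markers, 2 fell (Pdgfra, -0.59, adjusted p = 0.03, and Dcn, -0.47, 0.0305) and 0 rose. All 6 were below 0, with a median of -0.46, and 5 had an unadjusted p under 0.05 in DESeq2. In 3 of them the groups did not overlap, with DKO lower. Ratios of Lama2, Itga8 and Itgb3 to a fibroblast marker were not taken. Leaving out a library kept the call of Pdgfra in 2 of 6 fits and that of Dcn in 1 of 6, and neither was called by edgeR (0.198 and 0.208) or limma-voom (0.23 and 0.224). The fibroblast sums of 11095 to 15736 in WT and 8351 to 11896 in DKO overlapped. The part of either cell type in the changes of Lama2, Itga8 and Itgb3 was not tested.

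Other cell types were measured beside them. Of 4 acinar markers, Agt (1.23, adjusted p = 4.98e-19) and Aqp5 (0.54, 0.0165) rose, and of 5 duct markers, 2 fell, among them Egf (-0.69, 1.6e-05). Agt was also called by edgeR (0.0203) and limma-voom (0.0153) and in all 6 fits that left out a library. Aqp5 was called in 2 of those 6 (weakest without WT 5, 0.283), and not by edgeR (0.199), by limma-voom (0.225) or with total counts as size factors (0.124). Egf was called in all 6 but not by edgeR (0.123) or limma-voom (0.121). Markers of endothelium (0 of 5), Schwann cells (0 of 4), skeletal muscle (0 of 3), platelets (0 of 2) and adipocytes (0 of 1) were not called. Among the endothelial markers, Pecam1 stood at 0.40 (adjusted p = 0.11) and Vwf at -0.43 (0.129), each without overlap between the groups. Of all 5, 4 were above 0 and 1 below, with a median of 0.28. Groups did not overlap in 2 with DKO higher and 1 with DKO lower, and 3 had an unadjusted p under 0.05 in DESeq2.

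Itga4 fell and Itga9, its relative, did not pass. Itga4 (chr2:79255426-79333123, GRCm38, plus strand; ENSMUSG00000027009.18) encodes α4, which pairs with β1 or β7 on lymphocytes and other cells and binds VCAM1. The normalized counts were 436, 128 and 208 in WT and 98.7, 70 and 74.9 in DKO. The groups did not overlap, but WT 1 held more than the other WT libraries together. Itga4 fell by 1.66 on the log2 scale (SE 0.36, adjusted p = 0.000568), or 3.16-fold. Without WT 1 the log2 fold change was -1.05 and the call was lost (adjusted p = 0.0631), and it was also lost without DKO 1 (0.088), DKO 4 (0.293) or DKO 5 (0.319). Itga9, a receptor for tenascin and other ligands, had 142, 120.3 and 145 and 121, 101 and 98 (-0.34 ± 0.21 (SE, adjusted p = 0.537)). Cerkl, which shares 8.04% of the exon bases of Itga4 on the opposite strand, had at most 21 counts in a library.

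Of the 7 leukocyte integrins, Itgal fell and the other 6 did not pass. Itgal (chr7:127296260-127335138, GRCm38, plus strand; ENSMUSG00000030830.18), the α subunit of LFA-1, had 204, 61.6 and 132 normalized counts in WT against 72.1, 33.4 and 31.1 in DKO. The groups overlapped, since DKO 1 lay above WT 4. Itgal fell by 1.53 on the log2 scale (SE 0.42, adjusted p = 0.016), and the call was lost without WT 1 (0.442), WT 5 (0.191), DKO 4 (0.226) or DKO 5 (0.23).

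Its partner Itgb2, the β subunit shared by LFA-1 and the myeloid receptors, had 219.7, 73.4 and 173 normalized counts in WT against 95.8, 71.1 and 48.4 in DKO (-1.11 ± 0.37 (SE, adjusted p = 0.0626)). Itgb7, the β subunit of gut-homing and intraepithelial lymphocytes, had 149, 44 and 77 and 49.3, 27.2 and 33.4 (-1.29 ± 0.43 (SE, adjusted p = 0.0638)). In both genes DKO 1 lay above WT 4. Itgb2 passed without WT 4 (0.000446) or DKO 1 (0.0474), and Itgb7 without WT 4 (0.00495).

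The myeloid α subunits pair with Itgb2. Itgax, CD11c of dendritic cells and some macrophages, had 311, 155 and 191 normalized counts in WT against 177, 103 and 81.9 in DKO (-0.85 ± 0.31 (SE, adjusted p = 0.109)). Itgam, CD11b, had 175, 95.9 and 157 and 102, 92 and 88.8 (-0.60 ± 0.26 (SE, adjusted p = 0.228)). Their groups overlapped, and Itgax passed without DKO 1 (0.00946) and Itgam without WT 4 (0.0148). In the gene models used here, 68.7% of the Itgam exon bases are shared with the overlapping model Gm49368 on the same strand. The deposited counts hold no row for Gm49368, so whether this overlap affected the Itgam value is not known. Itgae, CD103 of intraepithelial lymphocytes, had 66.3, 34.2 and 26 and 27.5, 12.5 and 23.1 (-0.998 ± 0.48 (SE, adjusted p = 0.322)), and Itgad had 5.94, 7.83 and 8.96 and 5.69, 10.5 and 6.92 (0.02 ± 0.76 (SE, adjusted p = 0.998)). Both overlapped, and Itgad was close to the limit of what could be counted.

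The leukocyte genes moved together from library to library. WT 1 held the most of 6 of the 7 leukocyte integrins among all libraries, WT 4 held the least within WT for 5, and DKO 1 held the most within DKO for 6. Ptprc, CD45 of all leukocytes, had 1499, 617 and 1007 normalized counts in WT against 544, 357 and 288 in DKO (-1.39 ± 0.45 (SE, adjusted p = 0.0541)). For Ptprc too, WT 1 was the highest library, WT 4 the lowest within WT and DKO 1 the highest within DKO. Its groups did not overlap, unlike those of the leukocyte integrins. Of 15 leukocyte markers tested, 4 fell and 0 rose: Cd8a (-6.92, adjusted p = 0.000129), Emr1 (-1.02, 0.00181), Cd4 (-3.14, 0.0075) and Ms4a1 (-4.97, 0.0295). Cd8a was at 0 in all 3 DKO libraries, so its fitted value depends on the fit's handling of 0 and is no measured fold. Leaving out a library kept the call of Cd8a in 6 of 6 fits, of Emr1 in 3 of 6, of Cd4 in 2 of 6 (without WT 1, 0.409) and of Ms4a1 in 1 of the 5 that gave it an adjusted p, and edgeR and limma-voom called none of the 4 (adjusted p of 0.118 to 0.22 and 0.158 to 0.501). The 17 markers summed to 1654 to 3212 normalized counts in WT and 1055 to 1566 in DKO, and the neutrophil genes S100a8 and S100a9 were at or near 0 in every library.

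Per 100 counts of Ptprc, the 7 leukocyte integrins summed to 75.4, 76.4 and 75.9 in WT and 97.4, 98 and 109 in DKO, and the groups did not overlap. Itgam stood at 11.7, 15.5 and 15.6 and 18.7, 25.7 and 30.8 and Itgax at 20.7, 25 and 19 and 32.6, 28.9 and 28.4, also without overlap. Itgal held 13.6, 9.98 and 13.1 and 13.3, 9.36 and 10.8 per 100 of Ptprc, and Itga4 29.1, 20.8 and 20.6 and 18.2, 19.6 and 26, with overlapping groups. Against its partner Itgb1 the groups did not overlap, as Itga4 stood at 17.1, 5.45 and 8.01 in WT and 4.24, 2.7 and 3.27 in DKO. The part of leukocyte number in Itga4 and Itgal was not tested.

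**Figure D4:**
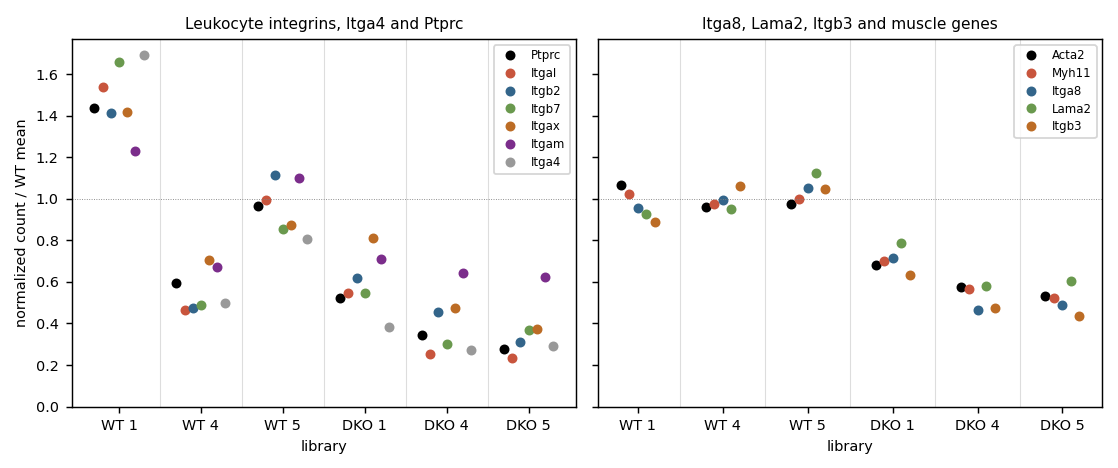
Normalized count in each library divided by the mean of the WT libraries. On the left, Itga4 and the leukocyte integrins Itgal, Itgb2, Itgb7, Itgax and Itgam are highest in WT 1 and, within WT, lowest in WT 4, as Ptprc is. Itgae and Itgad are not shown, and WT 4 was not their lowest WT library. On the right, Itga8, Lama2 and Itgb3 lie near the WT mean in all WT libraries and below it in all DKO libraries, as Acta2 and Myh11 do.

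Ligands of the leukocyte and α4 integrins were examined in a list of 12 integrin ligands, of which 11 were tested, 2 fell and 0 rose. Vcam1, the ligand of Itga4, had 214, 92 and 178 normalized counts in WT against 83.5, 77.3 and 49.6 in DKO, and fell by 1.20 on the log2 scale (SE 0.32, adjusted p = 0.0119). Icam1, the ligand of LFA-1, had 191, 109.6 and 209.6 and 105, 87.8 and 89.9, and fell by 0.85 (SE 0.26, 0.0428). In neither gene did the groups overlap, and WT 4 was the lowest WT library in both. Without WT 1 neither passed (0.3 and 0.387), and Vcam1 was also lost without WT 5 (0.219), DKO 4 (0.0881) or DKO 5 (0.19), and Icam1 without every library except WT 4. Icam2 (0.11, adjusted p = 0.965) and Cdh1, the E-cadherin bound by CD103 (0.05, 0.919), did not pass. Fn1, fibronectin, stood at -0.97 ± 0.47 (SE, 0.318), with 594, 404 and 1042 in WT.

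Inside the cell, integrins are coupled to actin by talin, kindlin, the ILK complex and vinculin. Of 25 adaptor genes, counting Itgav and the tetraspanin Cd151, 1 fell and 0 rose, with a median log2 fold change of -0.09. The gene was Vcl, vinculin, which had 945, 956 and 1119 normalized counts in WT against 793, 722 and 716 in DKO and fell by 0.44 (SE 0.12, adjusted p = 0.0137). Its groups did not overlap, and the call was lost without WT 5 (0.206), DKO 4 (0.0762) or DKO 5 (0.138). Of the kindlins, Fermt2, the widely expressed form, stood at 0.01 (0.982) and Fermt3, the leukocyte form, at -0.84 (0.0718).

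The partners of laminin in the basement membrane gave 0 calls of 16, with a median of -0.25. Col4a1 and Col4a2, the main collagen IV chains, stood at -0.24 (0.152) and -0.08 (0.876). Hemidesmosome partners gave 0 of 4, with Col17a1, the transmembrane collagen bound by Itgb4, at -0.62 (0.064). The dystroglycan complex and its glycosylation enzymes gave 0 of 16, with a median of 0.10. The number with an unadjusted p under 0.05 in DESeq2 was 5 of 25 adaptors, 5 of 11 integrin ligands tested and 3 of 16 partners. For hemidesmosome genes it was 2 of 4, and for dystroglycan genes 2 of 16. Beside these stand 2267 of all 18606 rows tested. edgeR and limma-voom called 0 genes of all 5 lists.

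**Figure D5:**
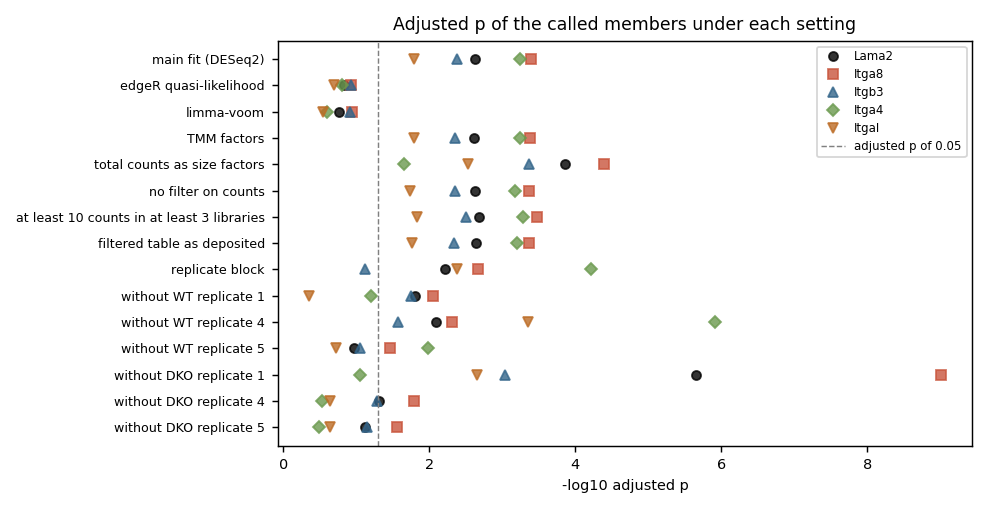
Negative log10 of the adjusted p for the 5 called genes in DESeq2 as used here and under each other test, normalization, filter, block or left-out library. Points right of the dashed line pass 0.05: Itga8 passes under every setting except edgeR and limma-voom, and no gene passes under those.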

How the data were processed

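RNA of SMGs from 3 WT and 3 DKO female mice was sequenced by the authors from unstranded Nextera XT libraries on a HiSeq2500. Raw counts by gene symbol were deposited by the authors as a full table (43280 rows) and as a filtered subset (17527 rows) that keeps every row exceeding 5 counts in any library. The submitters' processing notes name STAR 2.5.2a, DESeq2, edgeR and limma and the builds GRCm38 and mm10, without saying which step each served; the counting tool was not given in the sources used here. A deposited table of normalized values was not used.

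Rows of the full table totalling 10 counts or more (18606) were tested in R 4.3.3 with DESeq2 1.42.0, the test the study's methods name: median-of-ratios size factors, a two-sided Wald test, log2 fold changes of DKO over WT without shrinkage, and Benjamini-Hochberg adjusted p under 0.05 over all rows. No adjusted p was given for 2556 rows. All 41 genes had one. Intervals of 95% are from the Wald standard error. Mean ± SD has n = 3. Levels per kb divide normalized counts by the union of exons in GENCODE M21 (GRCm38), which also gives coordinates. The alternatives were edgeR 4.0.16, limma 3.58.1 (voom), TMM factors, total counts as size factors, other count filters, the replicate number as a block, each library left out, and the longest transcript as length. The fits were tested on simulated counts.

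Of the 41 genes, 40 are named; values of the remaining gene and of 1 duct marker are not reported here, though both stay in the counts and medians. Library values are given for genes with an adjusted p under 0.05, for leukocyte integrins, for the 2 highest genes per kb of each role (with that exception) and for a few partners. Of each list, called genes are named, at most 4 by smallest p, and other list genes were chosen after their values were seen. The 41 genes and the lists were chosen with earlier results of these data known, so their counts are not independent evidence. Tns2, B4gat1 and Adgre1 were read from the rows Tenc1, B3gnt1 and Emr1, older names in RefSeq. Within a group, pairs of libraries differed by 16.8 to 43.4 chi-square per degree of freedom, so no library repeated another. The study calls the WT and DKO mice it compared littermates, but the labels give no litter. Nothing states that glands of the same genotype came from separate litters, and litter was not in the fits. The p-values measure the spread between these libraries. With 3 against 3, an exact permutation test of 1 value cannot go below p = 0.1 and was not used.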

Additional observations from a re-analysis of the deposited data

How the results depend on the processing

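TMM factors, no count filter, a filter of at least 10 counts in at least 3 libraries and the filtered table left the counts of calls as reported: 5 of the 41 genes, 4 outside the leukocyte integrins, 1 leukocyte integrin and 3 list genes. edgeR's quasi-likelihood test and limma-voom called 0 in each set, and 10 and 7 rows in all, against 539. Total counts as size factors moved the median of all rows to -0.23 and called 18, 13, 5 and 12, all members lower; they turned the sign of Agrn (-0.053), Itga1 (-0.23), Itga3 (-0.14), Itga5 (-0.12), Itga7 (-0.015), Itgad (-0.23), Itgb4 (-0.12), Lama5 (-0.20), Cdh1 (-0.18) and Icam2 (-0.14), none of them called under either scaling. Relative to the median of all rows, the median of the laminin chains was -0.30 under both scalings.

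With the replicate number as a block, 5 of the 41 genes were called, 3 outside the leukocyte integrins (Itgb3 was lost, adjusted p = 0.0749) and 2 leukocyte integrins (Itgax was gained, 0.0434), with 1 list gene, Vcam1. Calls over all rows went from 539 to 343. The numbers did not pair the libraries: deviations of same-numbered libraries correlated at -0.13, -0.025 and -0.26 over 11515 rows. Among differently numbered pairs, WT 5 with DKO 1 (0.45), WT 4 with DKO 5 (0.44) and WT 1 with DKO 4 (0.27) correlated above 0. The others stood at -0.39 (WT 4 with DKO 1), -0.21 (WT 5 with DKO 4) and -0.14 (WT 1 with DKO 5). The block used the same-numbered pairs only, and the source of these correlations was not tested. Itgad, at under 11 normalized counts, changed sign under the block (-0.0010) and limma-voom (-0.0069).

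Leaving out each library in turn gave 1 to 10 of the 41 genes, 1 to 7 outside the leukocyte integrins, 0 to 4 leukocyte integrins and 0 to 6 list genes. The count was highest without DKO 1 and without WT 4, where the calls over all rows were also highest (740 and 817). Log2 fold changes crossed 0 in Itga1 (-0.050 to 0.078), Itga10 (-0.22 to 0.026), Itga2 (-0.28 to 0.046), Itga5 (-0.033 to 0.24), Itgad (-0.27 to 0.20), Lama5 (-0.031 to 0.11), Nid2 (-0.17 to 0.12), Cdh1 (-0.0088 to 0.11) and Icam2 (-0.28 to 0.33), none of them called. The cause of these changes was not tested.

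Over the longest transcript in place of the union of exons, the mean of the 3 log2 ratios per kb in WT turned sign for Lama5 to Lama2 (-0.42), Lamb2 to Lamb3 (-0.25), Itgb1 to Itga6 (-0.72), Itgb2 to Itgax (-0.13) and Itga4 to Itga9 (0.27). The order of the WT means per kb turned in the first 4 of these pairs and not in the last, where Itga4 stood above Itga9 over either length (18.4 against 17.6, and 26.4 against 19.3). Depth limits Lama1, Itgad, Itga2, Itga2b, Itga7, Itga10 and Itga11, which had few counts and wide intervals. Counts per gene do not separate isoforms of Lama3, Itga6 or Agrn.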
